A study of Mus musculus with 4 samples.

Results

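The nuclei described here are the called wild-type nuclei in which fewer than 10% of the RNA molecules came from introns. They number 625 of 5828 called nuclei in the wild-type library, which is 10.7% (exact Clopper-Pearson 95% interval 9.94% to 11.5%), and of 11167 called nuclei in both libraries of the series. They were chosen by their measured intronic share, which is intronic UMIs over all UMIs of the nucleus. A UMI (unique molecular identifier) marks 1 captured RNA molecule. The other 5203 called nuclei of the same library, at 10% or more, serve as the comparison. A further comparison is with 6523 barcodes of the same library that held at least 500 UMIs but were not called nuclei, termed uncalled barcodes below.

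Liver of both genotypes had undergone bile duct ligation, which blocks bile flow and causes fibrosis. The genotypes were wild type and Mertk knockout, and no unligated group was used here. Nuclei were freed from frozen liver by homogenisation in detergent and purified over iodixanol. The Multiome kit of 10x Genomics then gave an RNA profile and an ATAC profile, which shows open chromatin, under 1 barcode per nucleus. The labels name no allele, promoter, age, sex, number of animals or time after ligation. There was 1 RNA and 1 ATAC library per genotype, so nuclei of a group share 1 preparation and nothing here is tested across animals. No p-value is given. Values are medians over nuclei with quartiles, and intervals on shares cover counting error only. Counts per gene were not used here, so liver cell types could not be checked against marker genes.

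Introns are present in newly made RNA and are removed by splicing, mostly before the RNA leaves the nucleus. A preparation of nuclei is therefore usually rich in intronic reads, while RNA from the cytoplasm is mostly exonic. In the ATAC assay, a transposase cuts DNA that is not covered by nucleosomes, so that in an intact nucleus the fragments gather at transcription start sites (TSS) and at other open regions, called peaks. Mitochondrial DNA carries no nucleosomes and lies outside the nucleus. RNA and DNA set free during homogenisation can enter droplets without a nucleus, and such droplets appear as barcodes with few molecules.

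Most of the intron-poor nuclei lay far below the limit. Their median intronic share was 3.53% (quartiles 2.80% and 5.05%, range 1.40% to 9.98%), against 42.6% (33.4% and 51.5%) in the other nuclei. These values chose the groups and are given as a description. Under 5% intronic were 467 of the 625, or 74.7% (interval 71.1% to 78.1%). Counted in bins of 1 percentage point, the called nuclei had a narrow mode between 2% and 4%, with 173 and 176 nuclei in its 2 bins, and a broad one above 30%. From 8% to 9% there were 21 nuclei, from 9% to 10% 25 and from 10% to 11% 30, so no gap separated the groups at the limit.

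**Figure D1:**
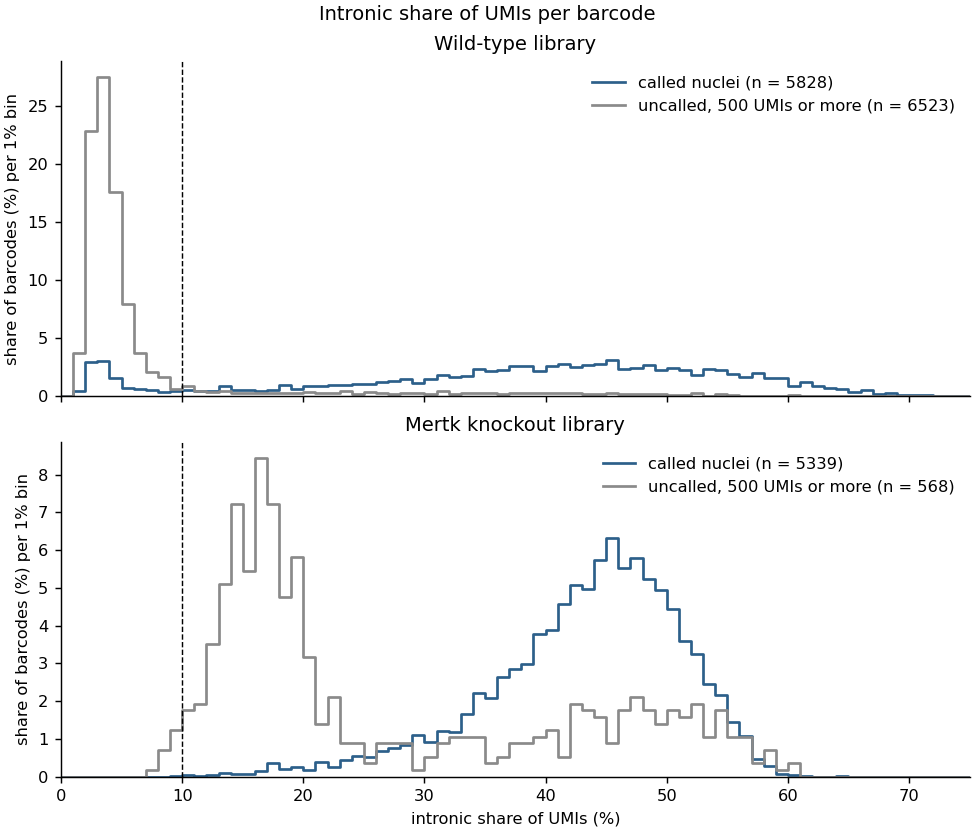
Share of barcodes (%) in each 1% bin of intronic share of UMIs, for called nuclei (blue) and uncalled barcodes with 500 UMIs or more (grey), with the wild-type library above and the Mertk knockout library below on its own vertical scale. The dashed line marks 10%. The small peak of wild-type nuclei below 5% lies under the main peak of the uncalled wild-type barcodes, and in the knockout library 1 of 5339 called nuclei and 12 of 568 uncalled barcodes lie left of the line.

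At the limit itself the members were mixed. Of the 5 nuclei just inside it (9.80% to 9.98% intronic), 2 had 33.2% of their ATAC fragments in peaks and the others 10.9%, 12.1% and 14.9%. Of the 5 just outside (10.01% to 10.11%), the peak shares were 12.1%, 38.3%, 22.1%, 47.2% and 41.0%. The band from 9% to 10% had a median peak share of 31.2% and the band from 10% to 11% one of 34.4%.

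The knockout library had almost no called nuclei under the 10% limit. Of its 5339 called nuclei, 1 was under the limit (0.0187%, interval 0.00047% to 0.104%). That nucleus had 9.11% intronic UMIs, 2776 UMIs, 1227 ATAC fragments and 51.2% mitochondrial ATAC reads. The difference extended to the barcodes that were not called. Among all barcodes with at least 500 UMIs, called or not, 6349 of 12302 wild-type barcodes were intron-poor (51.6%, interval 50.7% to 52.5%), against 13 of 4499 knockout barcodes (0.289%, interval 0.154% to 0.494%). The level of intronic RNA in sparse barcodes differed likewise. Uncalled barcodes with at least 100 and under 500 UMIs held 6.45% intronic UMIs in the wild-type library, summed over 49049 barcodes, and 20.6% in the knockout library, summed over 11815. Among uncalled barcodes with at least 500 UMIs, the fullest bin of 1 percentage point was 3% to 4% in the wild-type library (1796 of 6523). In the knockout library it was 16% to 17% (48 of 568), which is above the limit. A fixed limit of 10% thus does not mark a like part of each library. With 1 preparation per genotype, genotype and preparation cannot be told apart. The libraries shared 44 barcodes that were called in both, of which 6 were intron-poor wild-type nuclei.

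In exonic RNA the intron-poor nuclei were close to the others. They held a median of 2140 exonic UMIs (quartiles 1506 and 3068), and the other nuclei 2214 (1341 and 3691.5), a ratio of 0.967 with widely overlapping ranges. Total UMIs were 2215 (1567 and 3185) against 4037 (2378.5 and 6507), and intronic UMIs 78 (54 and 133) against 1749 (933.5 and 2931). Exonic and intronic UMIs add up to the total, so each of these counts enters the share that chose the groups. The values, those of exonic UMIs included, describe the selection. Within the intron-poor group UMIs ranged from 353 to 44872, and 54 of the 625 had fewer than 1000. All 625 together held 9.36% of the exonic UMIs of called wild-type nuclei and 0.575% of the intronic UMIs.

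Their RNA also came from fewer genes. The median was 1064 genes (quartiles 801 and 1419), against 2131 (1450 and 2983) in the other nuclei, 0.499 times as many. Genes rise with UMIs, and without counts per gene the nuclei could not be thinned to a like depth. They were instead compared within bins of like UMIs, which cover 595 of the 625, and there the ratio was 0.780. At like UMIs, however, the intron-poor nuclei held 1.59 times the exonic UMIs of the others, as the rule implies. The ratio of genes was 0.521 at like exonic UMIs and 0.527 at like ATAC fragments, near the unmatched value. Total UMIs were not alike in those bins, at 0.590 and 0.584 times those of the other nuclei. These ratios of genes are thus not at a like RNA depth. In the bin from 2048 to 2896 total UMIs, 158 intron-poor nuclei had a median of 1148 genes and 682 other nuclei one of 1502. Uncalled barcodes in that bin had 1180.

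Exonic molecules were read to a similar depth in both groups. Each exonic UMI was read 2.68 times (quartiles 2.60 and 2.77) in the intron-poor and 2.73 times (2.63 and 2.83) in the other nuclei. Intronic UMIs were read fewer times in the intron-poor nuclei, 2.24 (2.04 and 2.49) against 2.94 (2.78 and 3.07). Exonic and intronic UMIs are the denominators of these ratios and both enter the rule. The intronic ratio of the intron-poor nuclei rests on a median of 78 UMIs, so it is given as a description. Of all RNA reads, 86.5% (84.9% and 88.1%) and 89.0% (87.3% and 90.3%) were mapped.

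Intergenic reads, which map outside annotated genes, made up 37.8% (quartiles 34.1% and 41.9%) of the confidently mapped reads in the intron-poor nuclei and 23.3% (17.1% and 30.1%) in the others. Intronic reads stand in the denominator of that share and are low in the intron-poor group by its rule. With intronic reads left out of it, the shares were 39.2% (35.6% and 43.6%) and 35.2% (30.1% and 41.3%), and the difference shrank from 14.6 to 4.0 percentage points with overlapping quartiles. Per exonic UMI, a count that also enters the rule, there were 1.81 intergenic reads (1.52 and 2.14) against 1.57 (1.26 and 2.0).

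Antisense reads map to a gene on the strand opposite to its transcript. Of the exonic reads, 2.63% (quartiles 2.19% and 3.22%) were antisense in the intron-poor nuclei, against 4.75% (3.94% and 5.73%) in the others, and these quartile ranges do not overlap. Intronic reads showed the opposite order. Of the few intronic reads of the intron-poor nuclei 42.5% (35.3% and 48.0%) were antisense, against 10.6% (9.12% and 13.2%). This share was above the 95th percentile of the other nuclei, 21.7%, in 613 of the 625. Sense intronic reads are in the denominator of this share, so the rule raises it. High values were not confined to intron-poor nuclei. In the knockout library 2901 of 5339 called nuclei (54.3%) were also above 21.7%, although 1 of the 5339 was intron-poor. Set against exonic UMIs instead, antisense intronic reads were fewer in the intron-poor nuclei, at 63.4 (51.3 and 82.0) per 1000 exonic UMIs against 264 (196 and 355). That is a 4.16-fold difference, while intronic UMIs differed 20.3-fold on the same scale (36.5 against 743 per 1000). Intronic and exonic UMIs both enter the rule that chose the groups.

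The ATAC profile does not enter the intronic share that split the called nuclei. Both groups hold called nuclei only, however, and calling varied with ATAC fragments and peak share, as described below. The intron-poor nuclei held a median of 1486 fragments (quartiles 1081 and 2102, range 291 to 28366), against 5678 (2703.5 and 9728.5) in the other nuclei, a ratio of 0.262. The quartile ranges do not overlap. At like numbers of UMIs the ratio was 0.282. Fewer than 1000 fragments were found in 116 of the 625 (18.6%, interval 15.6% to 21.8%) and in 389 of the 5203 others (7.48%, interval 6.78% to 8.22%).

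**Figure D2:**
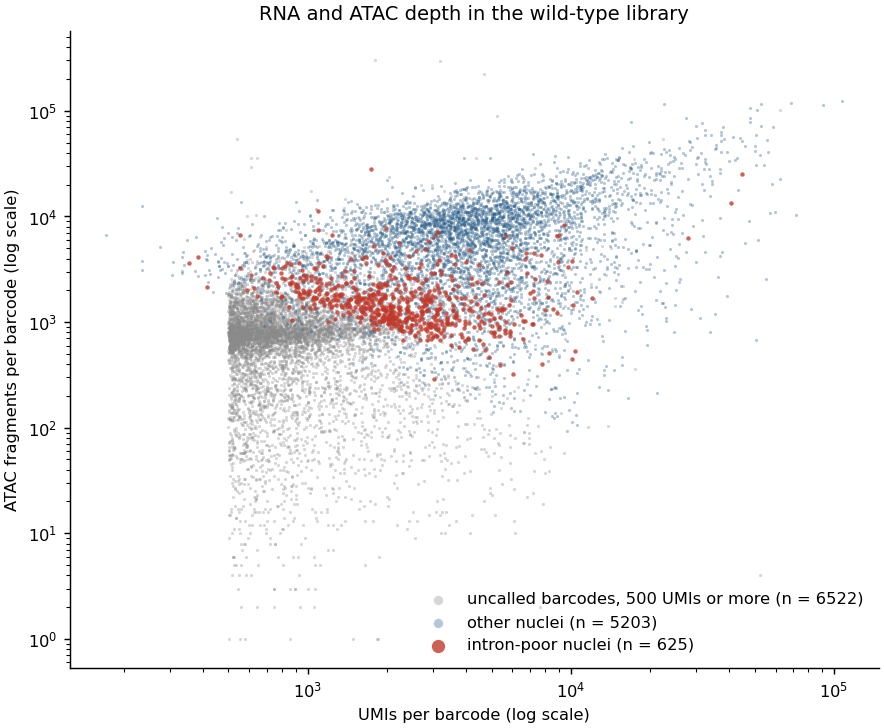
UMIs (horizontal) and ATAC fragments (vertical) of each barcode of the wild-type library, on log scales. Red points are the 625 intron-poor nuclei, blue the 5203 other nuclei and grey the uncalled barcodes with at least 500 UMIs and at least 1 fragment. The red points form a band between the dense grey cloud and the dense blue cloud, with a median of 1486 fragments against 745 in the uncalled barcodes and 5678 in the other nuclei.

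A smaller share of the fragments of the intron-poor nuclei lay in open regions. Fragments at TSS made up 14.0% (quartiles 12.8% and 15.5%), against 27.8% (23.9% and 30.9%) in the other nuclei. In peaks lay 14.4% (12.8% and 16.7%), against 35.8% (28.5% and 40.8%). For both shares the upper quartile of the intron-poor nuclei was below the lower quartile of the others. The peak list was called on this library, and the intron-poor nuclei held 1.71% of the peak fragments of called nuclei, while the share at TSS does not depend on that list. Within bins of like fragment numbers, which cover 566 of the 625, the gaps were 11.1 points for TSS (14.2% against 25.3%) and 17.2 points for peaks (14.7% against 32.0%). At 1024 to 1448 fragments the peak share was 13.5% in 179 intron-poor nuclei and 31.3% in 228 others.

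Of the shares of ATAC reads and fragments given here, that of mitochondrial reads differed by the largest ratio. They made up 7.09% (quartiles 4.01% and 11%) of the ATAC reads of the intron-poor nuclei, against 0.821% (0.455% and 1.48%) in the other nuclei, an 8.63-fold difference. In number too they were higher, with 250 reads (160 and 379) per nucleus against 91 (45 and 179), although the intron-poor nuclei had fewer ATAC reads in all. More than 5% mitochondrial reads were found in 416 of the 625 (66.6%, interval 62.7% to 70.3%) and in 145 of the 5203 others (2.79%, interval 2.36% to 3.27%). In the knockout library 1008 of 5339 called nuclei (18.9%) were above 5%. The intron-poor group held 3.40% of the ATAC reads of called wild-type nuclei and 19.9% of their mitochondrial ATAC reads.

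Other properties of the ATAC reads went with this. Reads of low mapping quality, which fit several places in the genome, made up 16.0% (14.0% and 18.5%) in the intron-poor nuclei and 8.10% (6.93% and 9.97%) in the others. Duplicates made up 33.7% (30.9% and 36.0%) and 40.4% (39.0% and 41.3%) of all ATAC reads. That total also holds the mitochondrial reads and those of low mapping quality, which were higher in the intron-poor nuclei. These shares therefore do not compare duplication among the remaining reads, which was not measured. The number of cut sites per peak fragment was 1.84 in both groups.

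**Figure D3:**
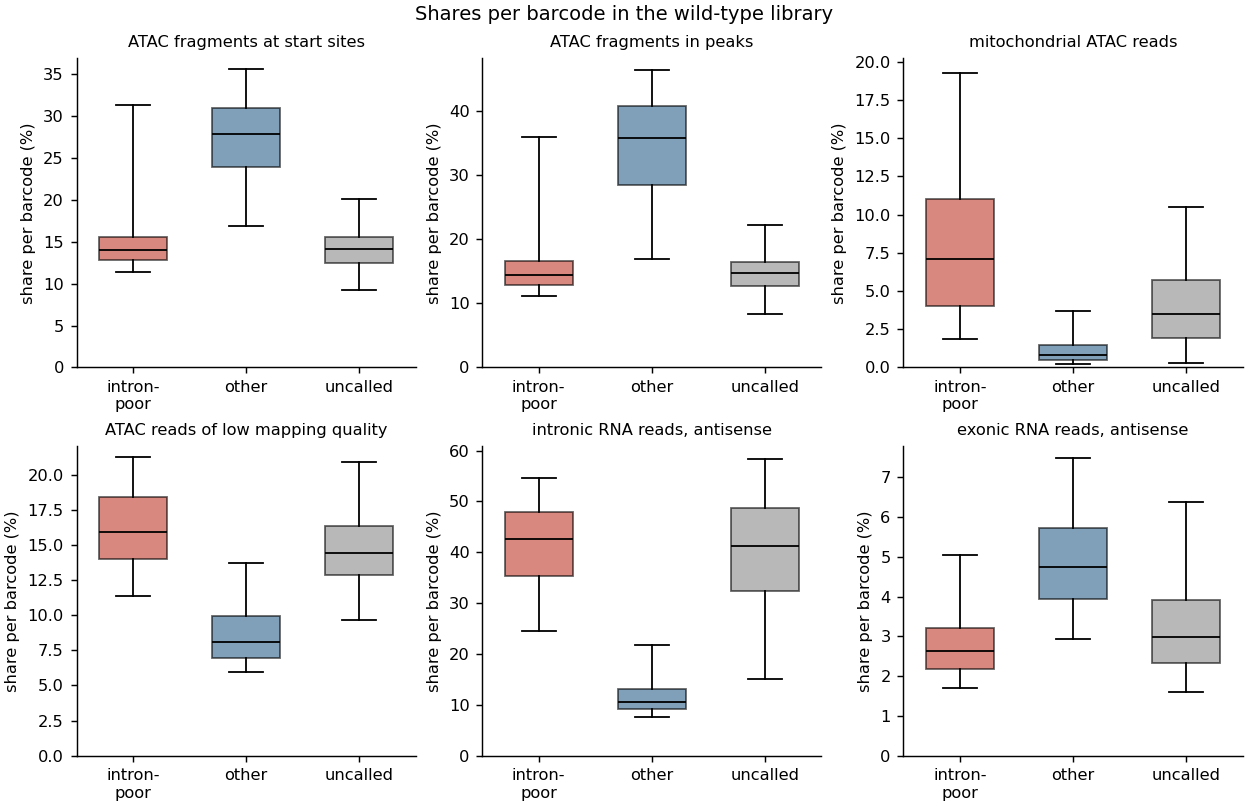
Shares per barcode (%) in the 625 intron-poor nuclei (red), 5203 other nuclei (blue) and 6523 uncalled barcodes (grey; 6522 with ATAC reads) of the wild-type library. Boxes span the quartiles with a line at the median, and whiskers reach the 5th and 95th percentiles. In all 6 panels the red box lies closer to the grey box than to the blue one. The red and grey medians are 14.0% and 14.2% at start sites, 14.4% and 14.8% in peaks and 7.09% and 3.47% for mitochondrial reads.

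Set against the uncalled barcodes, the intron-poor nuclei were deeper but alike in most shares. The 6523 uncalled barcodes had a median intronic share of 3.81% (quartiles 2.95% and 5.35%), and 5727 of them (87.8%, interval 87.0% to 88.6%) were under 10%. Their median peak share was 14.8% (12.8% and 16.4%) and their TSS share 14.2% (12.5% and 15.6%), each within 0.4 points of the intron-poor nuclei. Intergenic shares were 37.8% and 38.0%, and antisense shares of intronic reads 42.5% and 41.3%. In depth they differed: the uncalled barcodes had 773 UMIs (600 and 1163) and 745 fragments (396 and 1030). Mitochondrial reads made up 3.47% (1.94% and 5.73%) of their ATAC reads, 0.490 times the level in the intron-poor nuclei.

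At like numbers of UMIs the RNA of the intron-poor nuclei and of the 5727 intron-poor uncalled barcodes was close in the measures that follow. Weighted over the bins, the nuclei had 1142 genes and the uncalled barcodes 1125. Exonic antisense shares were 2.64% and 2.60%, intronic antisense shares 42.6% and 43.8%, and intergenic shares 37.8% and 38.1%. Both sets were chosen by the same limit on intronic share. Intronic reads stand in the denominators of the intronic antisense and intergenic shares, so the rule enters their closeness. Against all uncalled barcodes at like UMIs, these shares were 42.6% and 35.6%, and 37.8% and 35.5%. With intronic reads left out, the intergenic shares were 39.2% and 39.3% in the nuclei and the intron-poor uncalled barcodes. ATAC fragments were more numerous in the nuclei, 1453 against 815, and so were mitochondrial ATAC reads, 273 against 157. The peak share was 14.4% and 12.3%, and the TSS share 14.0% and 12.5%. For the mitochondrial share of ATAC reads the answer turned on what was matched. It was 7.58% and 7.32% at like UMIs, but 7.21% and 3.19% at like ATAC fragments (566 of the 625 in bins), against 7.09% and 3.81% without matching.

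Calling set a lower bound on the peak share. No called wild-type nucleus had a peak share below 10.8%, and of the 954 uncalled barcodes with 500 UMIs or more that lay below it, 953 carried the exclusion mark 2 in the deposited table. What the mark stands for is not stated in the labels or the table. At like UMIs the intron-poor nuclei were 2.09 points above the intron-poor uncalled barcodes for peaks and 1.45 points for TSS. With the 649 intron-poor uncalled barcodes below that share set aside, the difference was 0.340 points for peaks and 0.235 points for TSS. Setting barcodes aside by a low peak share raises the peak share of the rest, so the smaller difference for peaks is built in. No conclusion is drawn from either difference. The lowest peak share among the 625 was 10.8%.

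How often an intron-poor barcode was called varied with its depth. From 500 to under 1000 UMIs, 51 of 4143 intron-poor barcodes were called nuclei (1.23%, interval 0.918% to 1.62%), against 273 of 604 with 10% or more intronic UMIs (45.2%, interval 41.2% to 49.3%). From there to under 2000 UMIs the shares were 13.7% and 77.7%, and from 2000 to under 4000 UMIs 52.4% (262 of 500) and 90.2%. At 8000 UMIs or more, 19 of 39 intron-poor barcodes were called. Of the 1635 uncalled intron-poor barcodes with at least 1000 UMIs, 1196 had fewer than 1000 fragments, 226 of the rest carried the mark 2, and 213 had neither limit. Among the 571 intron-poor nuclei with at least 1000 UMIs, 116 had fewer than 1000 fragments.

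Across bands of intronic share, the peak share of called nuclei did not step at 10% but rose over a range around it. The median peak share was 13.8% below 2.5% intronic (89 nuclei), 14.2% from 2.5% to 5% (378), 16.0% from 5% to 7.5% (96) and 24.8% from 7.5% to 10% (62). From 10% to 12.5% it was 32.6% (66 nuclei), and it peaked at 38.2% from 15% to 20% (184). Above 20% the medians stayed between 32.8% and 37.1%. Uncalled barcodes showed no such rise around the limit, with 13.0% from 7.5% to 10% and 10.8% from 10% to 12.5%. They are what calling left behind. With at least 500 UMIs, 86.6% of barcodes at 10% or more intronic were called, against 9.80% of those below. The part of the calling in the missing rise was not tested. Mitochondrial shares of called nuclei were 10.0% below 2.5% intronic, 2.81% from 7.5% to 10% and 0.344% above 60%, falling from band to band except from 1.36% (15% to 20%) to 1.44% (20% to 25%).

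**Figure D4:**
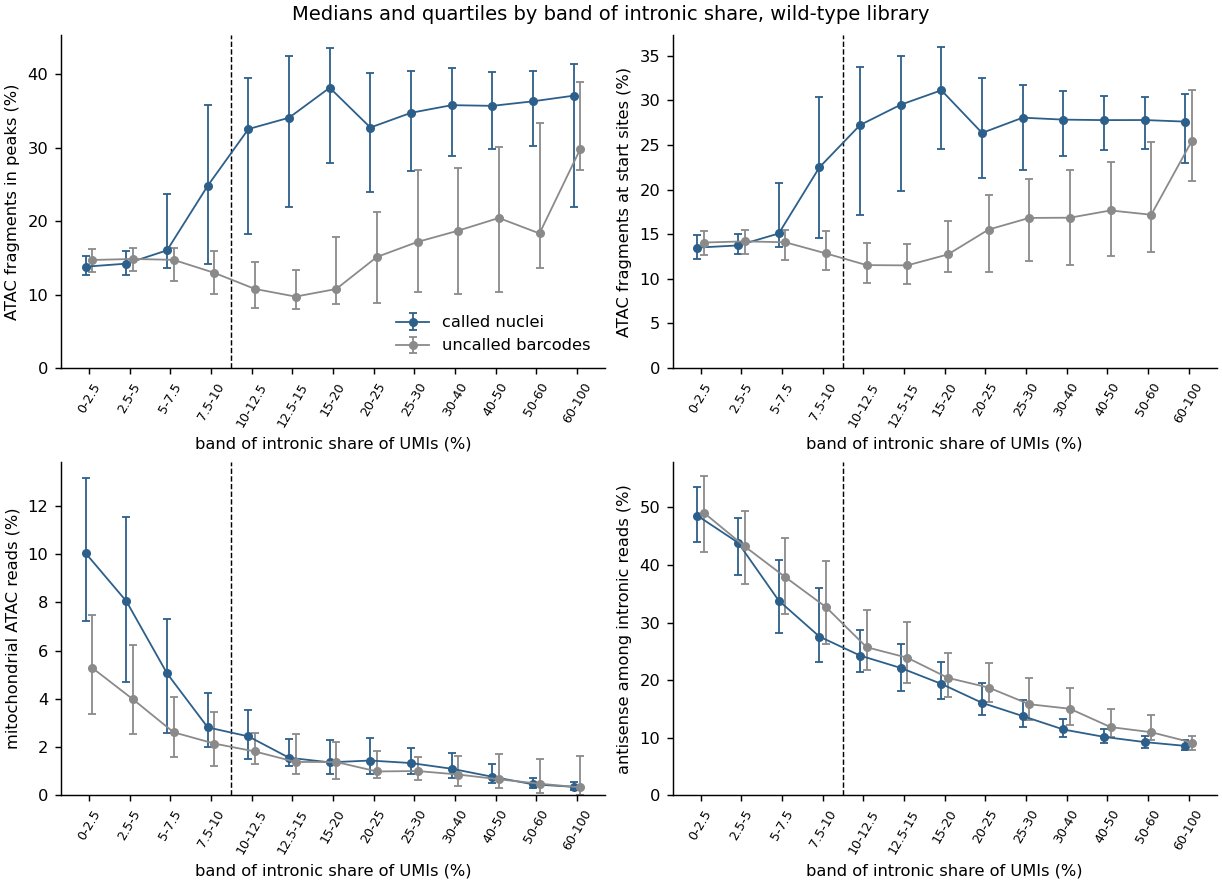
Medians with quartiles (bars) of 4 shares (%) by band of intronic share of UMIs, for called nuclei (blue) and uncalled barcodes with 500 UMIs or more (grey) of the wild-type library. The dashed line marks 10%, and bands are of unequal width. In called nuclei the peak share climbs from 14.2% in the 2.5 to 5% band to 32.6% in the 10 to 12.5% band, and the mitochondrial share falls from 8.05% to 2.44% between the same bands.

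The 625 were thus not uniform. A peak share under 20%, a limit chosen after the values were seen, was found in 535 of them (85.6%, interval 82.6% to 88.3%), in 485 of the 5203 other nuclei (9.32%, interval 8.54% to 10.1%) and in 93.3% of the uncalled barcodes. The 90 intron-poor nuclei with a higher peak share, which chose them, had a median of 31.9% of fragments in peaks and 27.3% at TSS. In the 4718 other nuclei that passed the same cut the medians were 36.8% and 28.4%. The 90 sat closer to the intronic limit, with a median intronic share of 7.24% (quartiles 5.29% and 8.45%) against 3.32% (2.72% and 4.37%) in the 535. Their fragments were more numerous, 3148.5 (1950 and 4239) against 1379 (1045.5 and 1843.5), and their mitochondrial share was lower, 3.26% (2.18% and 5.70%) against 7.80% (4.68% and 11.3%). Antisense shares of intronic reads were 30% and 43.9%.

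Within the intron-poor group, nuclei with more UMIs had more mitochondrial reads and fewer ATAC fragments. In 4 classes of equal size by UMIs, from the lowest, with median UMIs of 1109, 1918, 2692.5 and 4660, the mitochondrial share was 3.08%, 6.71%, 9.17% and 12.2%. The number of mitochondrial ATAC reads was 137, 240, 303.5 and 443. ATAC fragments over the same classes were 1966, 1365, 1274.5 and 1220, and the peak share was 16.5%, 14.1%, 13.7% and 13.7%. In the other nuclei, split in the same way, the mitochondrial share was 0.807%, 0.663%, 0.824% and 0.974%, and fragments were 4070, 5785, 6209.5 and 9587.

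As rank correlations over nuclei of 1 library, UMIs and the mitochondrial share had a Spearman rho of 0.687 over the 625 intron-poor nuclei, 0.116 over the 5203 others and 0.464 over 5726 intron-poor uncalled barcodes. For UMIs and ATAC fragments rho was -0.348, 0.306 and 0.0344 (over 5727 barcodes). These describe nuclei that share a library, and a nucleus enters the intron-poor group only when called, and calling varied with UMIs and fragments. As the plot of UMIs against fragments shows, intron-poor nuclei with few UMIs had more fragments. The part of the calling in this relation was not tested.

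**Figure D5:**
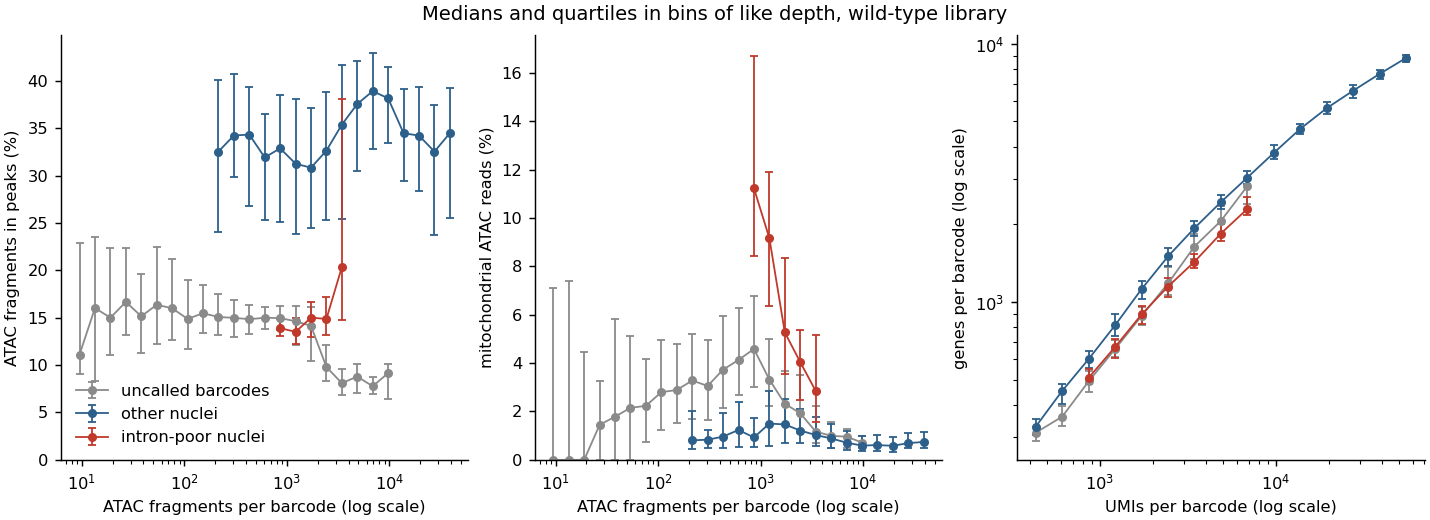
Medians with quartiles (bars) in bins of like depth, with depth and genes on log axes and shares on linear ones, for intron-poor nuclei (red), other nuclei (blue) and uncalled barcodes with 500 UMIs or more (grey) of the wild-type library. Bins with fewer than 20 barcodes are left out. The peak share (left) of intron-poor nuclei lies between 13.5% and 15% up to 2896 fragments and is 20.4% in the last bin of 43 nuclei. Their mitochondrial share (middle) falls from 11.2% to 2.85% over the bins, and their genes (right) lie below those of the other nuclei at each depth.

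Leaving the intron-poor nuclei out moved the wild-type medians toward the knockout library in some measures and away from it in others. The median peak share went from 34.6% to 35.8%, with 51.7% in the knockout library, where each library was counted in its own peak list (61.9 and 91.3 Mb). The TSS share went from 27.2% to 27.8%, with 34.7% in the knockout. Median UMIs went from 3769 to 4037, with 1232 in the knockout, and ATAC fragments from 4950.5 to 5678, with 8771. For mitochondrial reads the gap grew, from 0.931% to 0.821% with 2.13% in the knockout library. In intronic share, which the rule itself raises when these nuclei are left out, the median went from 40.6% to 42.6% with 44.5% in the knockout, and the difference from the knockout went from -3.86 to -1.84 points.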

How the data were processed

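For each barcode the deposited tables give counts of reads, UMIs, genes and ATAC fragments and mark called nuclei. The authors used cellranger-arc 2.0.2 with mm10, per the file headers. The deposited counts were used without normalisation. Exonic and intronic UMIs summed to the UMI count in every barcode. Shares were taken per barcode and summarised as medians with quartiles. Like depths were compared in bins 0.5 wide in log2 with at least 20 barcodes of each group, weighted by the intron-poor nuclei. The matching was tested on simulated shares set by fragment number, with and without an added difference. Ratios of counts, and matching on UMIs that enter the rule, were not simulated. Doublets were not called, because counts per gene were not used. The sources used here do not say how the authors treated doublets. Software was scipy 1.17.1, pandas 2.3.3 and numpy 2.4.6 under Python 3.11.15, with figures from matplotlib 3.10.9. No gene is named, since no counts per gene were used. The groups, limits and measures were chosen with earlier results of these data known.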

Additional observations from a re-analysis of the deposited data

How the results depend on the processing

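No paired analysis was possible because each genotype has 1 library per assay, and no replicate could be left out. Of 53 alternatives, 16 left a value within the interval of its medians or share over nuclei, 33 moved it beyond and 4 turned its sign. The 4 turns concern differences from the uncalled barcodes that were under 0.4 points as reported. A 5% limit gave a share of nuclei of 8.01% and a mitochondrial difference of 7.54 points. A 20% limit gave a share of 16.6%, ratios of 0.491 for UMIs, 0.471 for genes and 0.311 for fragments, and differences of -1.94 (antisense), -12.5 (TSS), -19.5 (peaks) and 3.53 points (mitochondrial). Taking the intronic share from reads gave 9.88% of nuclei. With at least 1000 UMIs and fragments, the share was 9.18%, the ratios 0.495 (UMIs) and 0.469 (genes), and the differences -14.2 (TSS) and -22.0 points (peaks). Like depth gave 0.780 for genes, and 13.2 (intergenic), -11.1 (TSS) and -17.2 points (peaks). Summed counts gave -1.95 (antisense), -9.33 (TSS) and -14.4 points (peaks). Intergenic differences were 4.0 without intronic reads and 13.1 over mapped reads, and the antisense difference was -2.62 over exonic and intronic reads. For uncalled barcodes, floors of 200 and 1000 UMIs and leaving out marked barcodes gave intronic shares of 4.76%, 3.69% and 3.69%. Peak differences were then -1.16, 0.643 and -0.797 points, and 1.40 at like fragment numbers. TSS differences were -0.705, 0.591 and -0.489, and 0.976 at like fragment numbers. For these shifts the cause was not tested.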

Other observations

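Low peak shares were not confined to intron-poor nuclei. The 485 other nuclei with a peak share under 20% had a median intronic share of 39.6% (quartiles 27.8% and 53.3%), 3679 UMIs (1553 and 9025) and 3871 fragments (2195 and 8105). Their mitochondrial share was 0.994% (0.520% and 2.21%), near the 0.806% of the 4718 with a higher peak share.

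The 796 uncalled barcodes with 10% or more intronic UMIs also differed from the intron-poor ones. They had 1268 UMIs (quartiles 714 and 2707) and 774 fragments (166 and 2492). Their mitochondrial share was 1.05% (0.477% and 1.99%), against 3.81% in the intron-poor uncalled barcodes, while their median peak share was 14.7% against 14.8%. The spread of peak shares was not alike. A peak share under 20% was found in 513 of the 796 (64.4%), against 5573 of the 5727 intron-poor uncalled barcodes (97.3%).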
